A study of Rattus norvegicus with 2 samples.

Results

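The genes described here are 10 genes of the hypoxia-inducible factor (HIF) system, chosen by name: the factors Hif1a, Epas1 and Hif3a, their regulators Egln1, Egln3 and Vhl, and the target genes Bnip3, Adm, Car9 and Ankrd37. A probe set counted as a member where its only gene symbol in the platform annotation was one of these names, which gave 1 probe set for each of 9 genes, among 15037 named genes on the array. Egln1 had no named probe set and was not analysed here. The RNA came from the basilar artery of male Sprague-Dawley rats, 13 months old, and was read on 2 Clariom S arrays, which measure annotated genes with sets of short probes. One array carried the ligated pool, from 4 rats whose common carotid arteries had both been tied off 4 weeks earlier, and the other carried the sham pool, from 4 rats whose carotid arteries had been exposed but not tied. Since each group was a single array of pooled RNA, the design holds no replicates, and every difference stands without an error or a p-value.

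HIF is a pair of proteins, an α subunit that answers to oxygen and the stable partner ARNT. When oxygen is present, prolyl hydroxylases of the Egln family mark the α subunit, the von Hippel-Lindau protein binds the mark, and the subunit is degraded. When oxygen is short, the α subunit persists and turns on genes for glycolysis, mitophagy, pH control and vessel tone. The α subunits are thus controlled mainly as proteins, and the arrays read only RNA.

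HIF binds DNA at a short core, read here as the letters ACGTG or GCGTG on either strand. RefSeq promoter windows on the rat build GRCr8, from 250 bases before to 50 bases after the annotated start, were found for all 10 genes, with a second window for Hif3a. At least 1 core was present in 6 of these 11 windows, against 41.6% of all 33469 windows in the same table. The 6 windows belonged to Hif1a, Hif3a, Egln1, Bnip3, Car9 and Ankrd37. The windows of Epas1, Vhl, Egln3 and Adm held no such letters, which says nothing about binding elsewhere. Stretches of the promoters of 3 target genes are shown because they carry the core in different numbers and places, with the cores in capitals and each sequence read 5′ to 3′ along the strand of its gene.
Bnip3, chr1:203155013-203155112, minus strand: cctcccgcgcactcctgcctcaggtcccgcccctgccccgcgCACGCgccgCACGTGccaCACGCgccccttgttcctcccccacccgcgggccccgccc
Ankrd37, chr16:53001257-53001511, plus strand: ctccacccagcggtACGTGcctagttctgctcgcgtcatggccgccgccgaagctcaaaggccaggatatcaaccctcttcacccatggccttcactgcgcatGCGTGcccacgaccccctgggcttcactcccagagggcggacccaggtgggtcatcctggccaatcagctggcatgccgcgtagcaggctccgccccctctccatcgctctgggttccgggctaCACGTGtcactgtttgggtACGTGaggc
Car9, chr5:62558974-62559033, plus strand: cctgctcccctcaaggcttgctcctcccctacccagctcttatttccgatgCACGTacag
The Bnip3 stretch held 4 matches, of which 2 overlap in the palindrome CACGTG. The Ankrd37 stretch held 5 matches, again with 2 that overlap in CACGTG. The Car9 window held 1 match, which began at base 2 after the annotated start.

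The 5 members with signals above background, which were above it on both arrays, were all higher in the ligated pool, by less than 2-fold. Epas1 had the largest of these differences and Hif1a the smallest. The other 4 measured members, Hif3a, Egln3, Car9 and Ankrd37, were no brighter than background on either array. Background was taken as the brightest of 23 antigenomic probe sets, which match no rat transcript and reached 157 in the ligated pool and 151 in the sham pool.

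**Figure D1:**
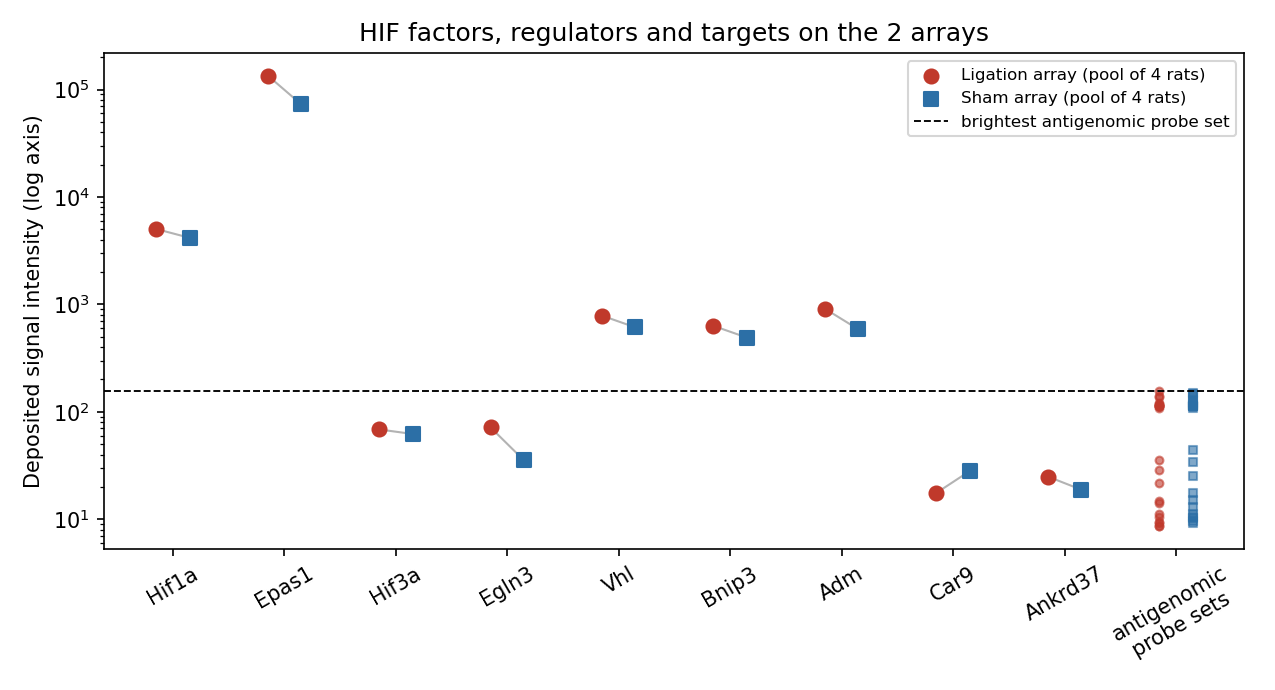
Deposited signal intensity of each measured member on a log axis, with the ligation array (red circles) left of the sham array (blue squares); each point is 1 array of pooled RNA, and there are no error bars because each group has 1 array. The signals of Hif1a, Epas1, Vhl, Bnip3 and Adm lie above the dashed line at the brightest antigenomic probe set (157), those of Hif3a, Egln3, Car9 and Ankrd37 lie under it, and the small points at the right are the 23 antigenomic probe sets.

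Among the factors, Epas1 encodes HIF-2α, an α subunit prominent in endothelial cells. Its signal was 134971 in the ligated pool and 72902 in the sham pool, which is 1.85-fold higher. This difference of 0.89 on the log2 scale stood at the 94.6th percentile of the differences of all named genes. Hif1a encodes HIF-1α, the α subunit that most cells make. Its signal was 5027 in the ligated pool and 4161 in the sham pool, a 1.21-fold difference or 0.27 on the log2 scale. The Hif1a difference lay at the 72.2nd percentile, inside the middle part of the genes above background, whose quartiles were -0.25 and 0.44. Hif3a encodes HIF-3α, of which some forms restrain the other factors. It had 68.5 in the ligated pool and 62.1 in the sham pool, and 12 of the 23 antigenomic probe sets were brighter than it on each array. Hif3a was therefore not above background, and the ratio of its signals is not a measured fold.

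Of the regulators, Vhl encodes the subunit that recognizes hydroxylated HIF-α for degradation. Its signal was 785 in the ligated pool and 610 in the sham pool, a 1.29-fold difference. Egln3 encodes a prolyl hydroxylase that is itself a HIF target. It had 71.5 in the ligated pool and 35.2 in the sham pool, the only ratio among the members past 2-fold (2.03-fold). Both signals were under the brightest background probe set, with 12 antigenomic probe sets at least as bright in the ligated pool and 13 in the sham pool, so this ratio is likewise not a measured fold. When 64 was added to both signals to damp such dim values, the Egln3 difference of 1.02 on the log2 scale became 0.45. Epas1, at 1.85-fold, was the next below the threshold.

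Among the targets, Adm encodes adrenomedullin, a peptide that widens vessels. Its signal was 911 in the ligated pool and 586 in the sham pool, which is 1.55-fold higher. Its log2 difference of 0.64 was at the 89.2nd percentile of all named genes. Bnip3 encodes a receptor that directs mitochondria to autophagy. It had 630 in the ligated pool and 491 in the sham pool, a 1.28-fold difference of the same size as that of Vhl (0.36 on the log2 scale for both). Car9 encodes carbonic anhydrase IX, a membrane enzyme of pH control that is strongly induced by HIF in many tumours. Its signal was 17.6 in the ligated pool and 28.1 in the sham pool, the only member with a lower signal after ligation, and at least 14 antigenomic probe sets were brighter on each array. Ankrd37, an ankyrin repeat gene known as a HIF target, had 25 in the ligated pool and 18.8 in the sham pool, likewise within background.

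Of the 9 measured members, 1 passed 2.0-fold upward, against 4.04% of all named genes, and none was below 0.5-fold, against 2.97%. These are the thresholds of the study. The 1 member past the threshold, Egln3, was within background, so no member above background passed it in either direction, against 6.19% higher and 3.5% lower among the 7751 named genes above background on at least 1 array. By direction, 8 of the 9 members were above 0, against 48.7% of all named genes. For the members above background this was 5 of 5, against 56.4% of the genes above background. The median log2 difference of the members was 0.36, against -0.01 for all named genes, and it was 0.36 for the 5 members above background, against 0.08 for all such genes. Above background, the middle 95% of named genes reached from -1.16 to 1.35, and each of the 5 members lay inside this range.

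**Figure D2:**
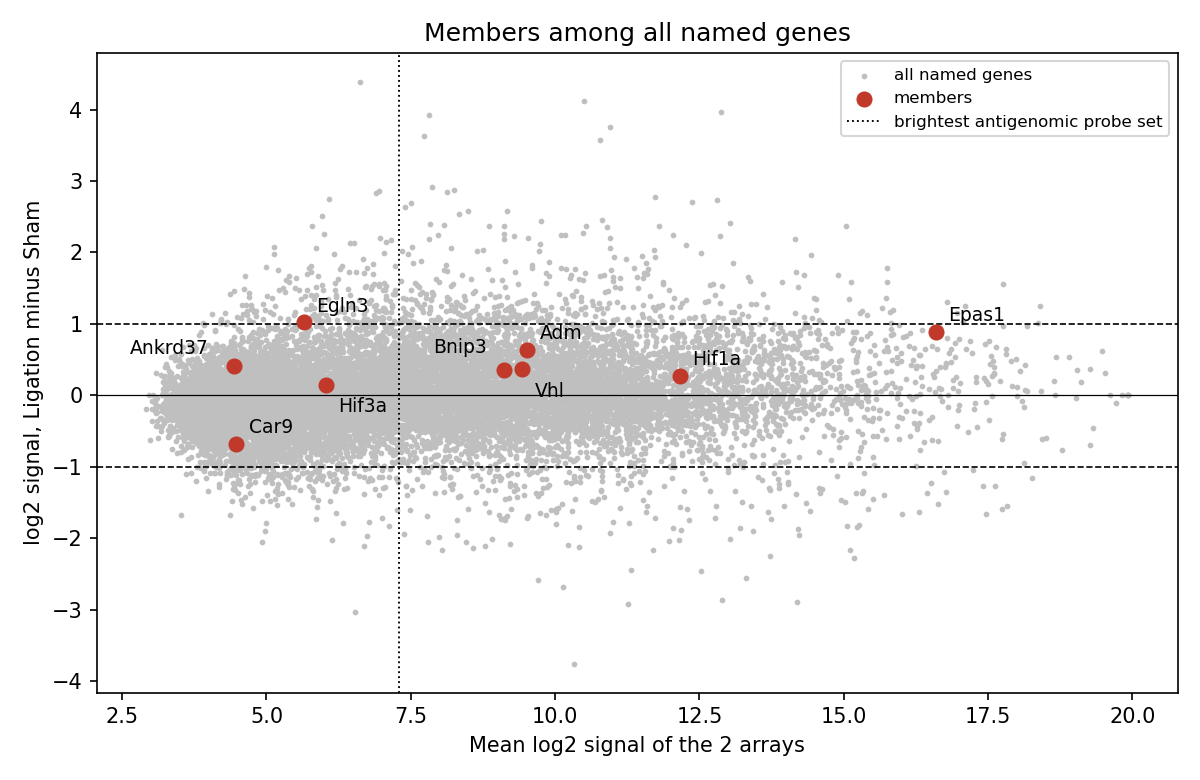
Difference in log2 signal, ligation minus sham, plotted against the mean log2 signal of the arrays for all 15037 named genes (grey) and the 9 measured members (red). Dashed lines mark 2-fold, the dotted line marks the brightest antigenomic probe set, and the members right of it, from Hif1a (0.27) to Epas1 (0.89), lie within the cloud of genes.

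Markers of the cell types in and around the artery also differed between the pools. The measured smooth muscle and endothelial markers, which define the artery, were all above background on at least 1 array. All 9 measured endothelial markers were higher in the ligated pool, with a median of 1.21. The deposited signals put 5 of the 9 past 2-fold, against 4.04% of all named genes. Of these 5, Emcn had 281 in the ligated pool and 63.6 in the sham pool, which is within background. Emcn was thus at least 1.86-fold higher and is not shown to be past 2-fold. The summed signal of the 9 markers was 165064 in the ligated pool and 91543 in the sham pool. They reached from 0.14 for the receptor Kdr to 2.78 for Vwf, the von Willebrand factor, while Cdh5, the brightest of them, differed by 0.57. The Epas1 difference of 0.89 lay inside this range, with 5 of the 9 markers above it and 4 below it. All 8 smooth muscle markers were lower, 4 of them under 0.5-fold, with a median of -1.07, from -2.27 for Smtn to -0.10 for Tagln, and their summed signal was 1821970 in the ligated pool and 2590820 in the sham pool. In pooled RNA of whole arteries, fewer cells of a type and less RNA per cell cannot be told apart. The part of these markers in the member differences was not tested.

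Markers of the other cells that an artery sample can hold were mostly higher in the ligated pool. All 8 fibroblast and leptomeningeal markers were higher, with a median of 0.74, a summed signal of 1074640 in the ligated pool and 781580 in the sham pool, the largest difference for Aldh1a2 (1.09) and 0.36 for the brightest, Dcn. All 8 macrophage and microglia markers were higher as well, with a median of 0.92, led by Mrc1 (1.59), with 0.90 for the brightest, C1qb, and summed signals of 37067 and 19791 in the ligated and sham pools. The 7 astrocyte markers were higher with a median of 1.42, up to 4.12 for Aqp4 and 3.96 for Gfap. The brightest, Gja1, differed by 0.31. The summed signal of the 7 was 92206 in the ligated pool and 46004 in the sham pool. Gja1 alone gave 52323 and 42280 of these sums. The 6 measured markers of oligodendrocytes and Schwann cells were higher with a median of 2.03, up to 3.76 for Mbp. They summed to 15967 in the ligated pool and 2171 in the sham pool. Of these 6, 2 were within background on both arrays, and the other 4 had a median of 2.78. Pericyte markers lay on both sides of 0, with 4 of 6 higher, 1.61 for Rgs5 and 0.32 for the brightest, Pdgfrb, and with -1.46 for Cspg4 and -1.10 for Notch3. In this list 1 marker was over 2-fold higher and 2 were under 0.5-fold, with a summed signal of 62574 in the ligated pool and 45224 in the sham pool. Of the markers of these cell types, Cd163, Aldh1l1, Mog and Sox10 were within background on both arrays, and Mag and Kcnj8 in the sham pool. Whether any of these cells carried the member differences was not tested.

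**Figure D3:**
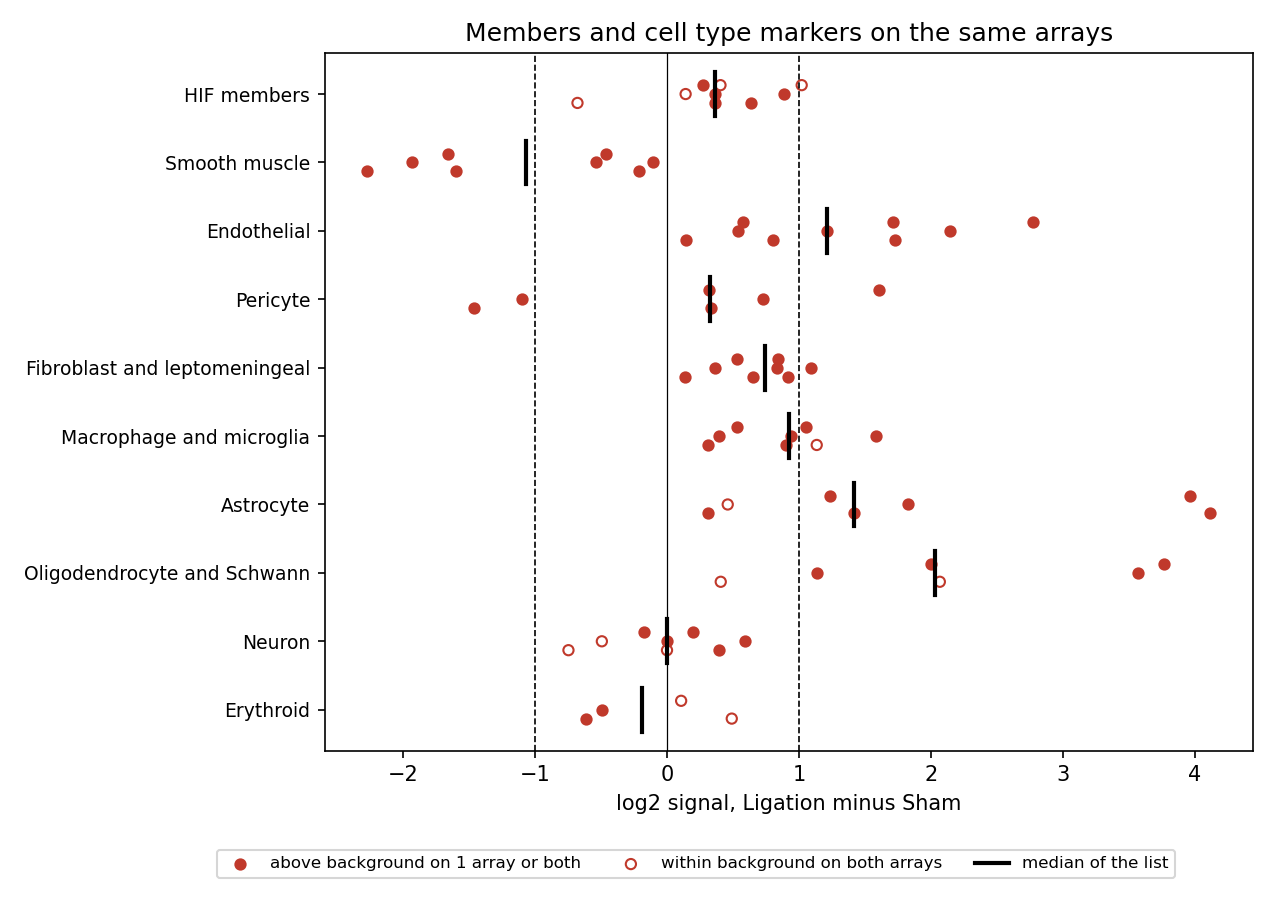
Difference in log2 signal, ligation minus sham, for the HIF members and for each list of cell type markers, 1 point per gene. Filled points were above the brightest antigenomic probe set on 1 array or both, open points were within background on both, black bars are medians (0.36 for the members, -1.07 for smooth muscle, 1.21 for endothelial markers) and dashed lines mark 2-fold.

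The rest of the HIF machinery did not share one direction. Of 14 measured oxygen sensors and partners of HIF, 5 were above 0 and 9 below it, with a median of -0.11, and 1 was under 0.5-fold (background 2.97%). Siah2, a ubiquitin ligase that targets the prolyl hydroxylases, had 350.2 in the ligated pool and 795 in the sham pool, which is 2.27-fold lower. Rbx1, the RING subunit of the ligase that holds the von Hippel-Lindau protein, had 1271 in the ligated pool and 671 in the sham pool, 1.90-fold higher and the largest increase of the list. Elob and Eloc, the elongins that join Vhl in that ligase, differed by 0.47 and -0.28 on the log2 scale. Arnt, the partner of every HIF-α subunit, had 7171 in the ligated pool and 8156 in the sham pool (-0.19). Among the oxygen sensors of this list, 2 were slightly lower in the ligated pool. They were Egln2, a prolyl hydroxylase (-0.36), and Hif1an, the asparaginyl hydroxylase that inhibits HIF (-0.39). P4htm, also on the list, was not measured.

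Further HIF targets were grouped by function. Of 23 genes of glucose transport and glycolysis, 2 passed 2-fold upward and none downward, against 4.04% and 2.97% of all named genes. Their median was -0.05, with 11 above 0 and 12 below. The 2 were Slc2a1, the glucose transporter of the blood-brain barrier, which had 5829 in the ligated pool and 1610 in the sham pool (3.62-fold higher), and Aldoc, an aldolase abundant in astrocytes, which had 2040 and 591 (3.45-fold higher). Classical glycolytic targets lay on both sides of 0, with differences of 0.90 for Eno1, 0.54 for Gapdh and 0.45 for Pdk1 and of -0.50 for Pgk1 and -0.51 for Ldha on the log2 scale, and Pfkl, a phosphofructokinase, had the lowest value of the list (-0.94). Endothelium is known to express Slc2a1 and astrocytes Aldoc, and the part of these cells in the 2 values was not tested.

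Of 16 measured targets of vessel signaling, 4 passed 2-fold upward and none downward, against 4.04% and 2.97% of all named genes, and the median was 0.83, against -0.01 for all named genes. Flt1, a receptor for the endothelial growth factor VEGF, had 2388 in the ligated pool and 503 in the sham pool (4.75-fold higher). Hmox1, the heme oxygenase, had 342 in the ligated pool and 125 in the sham pool, which is within background, so it was at least 2.26-fold higher. The study chose Hmox1 on these arrays, so its direction here is not independent evidence. The study also measured Hmox1 by real-time PCR. There it reported higher expression in ligated rats for every gene so chosen, significantly for most of them. Vegfa, the ligand of Flt1, had 384 in the ligated pool and 144 in the sham pool, also within background, which is at least 2.54-fold higher. The chemokine Cxcl12 was 2.55-fold higher. Several genes of this list are expressed by endothelial cells, and Kdr is on the list of their markers too, and their part in these values was not tested.

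Bnip3 can be set beside its paralog and fellow mitophagy receptor Bnip3l, one of 7 measured mitochondrial targets. Bnip3l had 29251 in the ligated pool and 14637 in the sham pool, which is just under 2-fold higher, against 1.28-fold for Bnip3. The list as a whole had a median of -0.28, with 3 genes above 0 and 4 below, and no gene past 2-fold. Higd1a, a protein of the mitochondrial inner membrane, had 118 in the ligated pool, within background, and 181 in the sham pool, so that it was at least 1.15-fold lower.

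The genes of the adrenomedullin receptor were higher in the same pool as Adm, apart from Ramp3. Calcrl, the receptor that binds adrenomedullin when paired with a RAMP protein, had 3948 in the ligated pool and 1939 in the sham pool (2.04-fold higher). Ramp2, its main partner in endothelium, had 2260 in the ligated pool and 874 in the sham pool (2.59-fold higher). Ackr3, a scavenging receptor for adrenomedullin and Cxcl12, had 1062 in the ligated pool and 500 in the sham pool (2.12-fold higher). Ramp3, the alternative partner, was within background at 10.7 and 11.7 in the ligated and sham pools. Pam, the enzyme that amidates the peptide, differed by 0.38. In all, 3 of these 5 genes passed 2-fold upward and none downward, against 4.04% and 2.97% of all named genes, with a median of 1.03. This median was the value of Calcrl. With each array centred on the median of its gene probe sets it was 0.97, just under 2-fold, so the count depends on the scaling. Calcrl and Ramp2 are also expressed by endothelial cells, whose part in these values was not tested either.

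**Figure D4:**
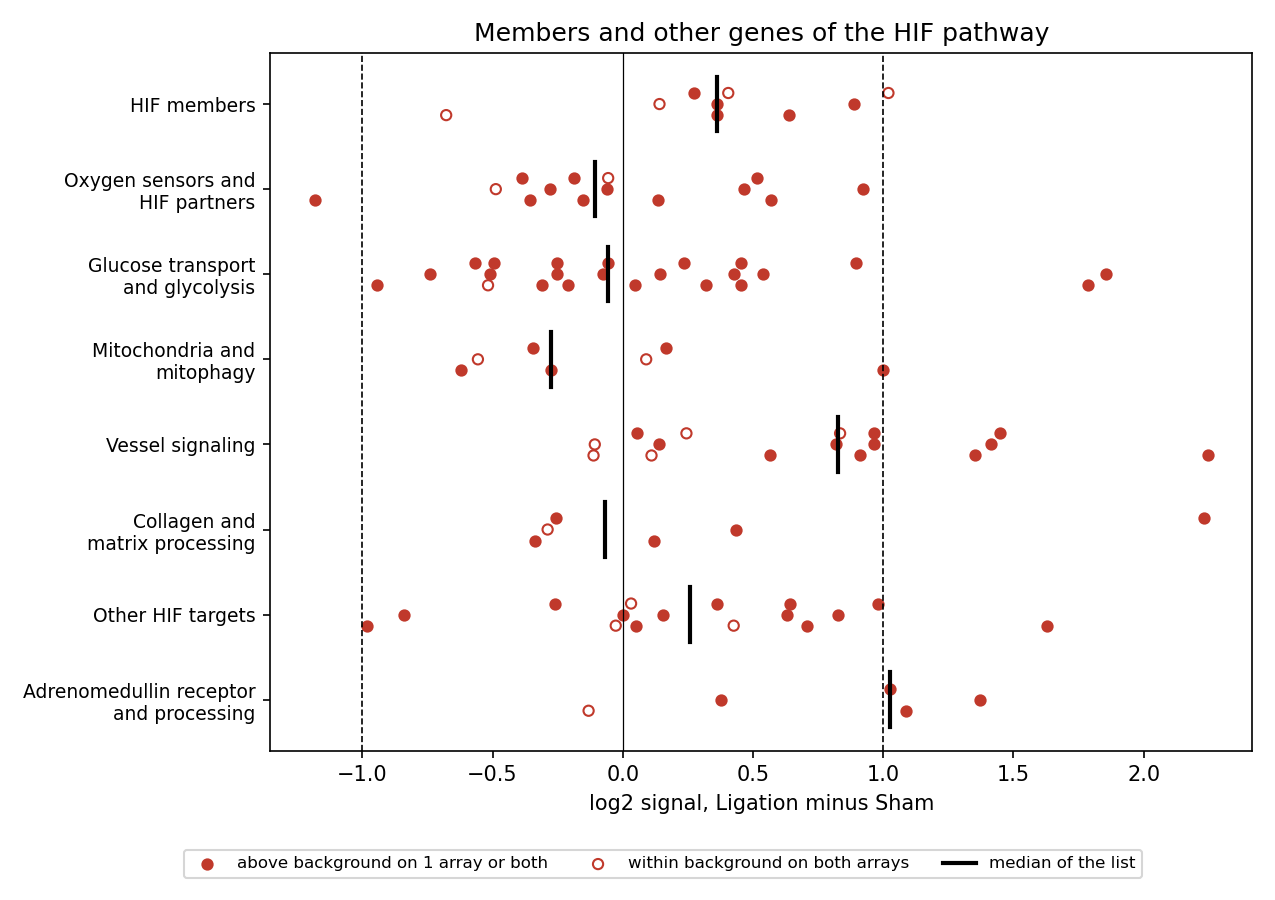
Difference in log2 signal, ligation minus sham, for the members and for 7 lists of other HIF pathway genes, 1 point per gene. Filled points were above the brightest antigenomic probe set on 1 array or both, open points were within background on both, black bars are medians (0.36 for the members, 0.83 for vessel signaling, -0.05 for glucose transport and glycolysis) and dashed lines mark 2-fold.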

How the data were processed

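Pooled RNA of 4 rats per group was labeled (50 ng) and hybridized to 1 array per group. The authors deposited a linear signal intensity per probe set, made by RMA in Affymetrix Expression Console according to the submitters' processing notes. The versions and the genome build are not given in the sources used here. RMA, as it is usually run, subtracts background and forces the arrays to a common distribution, so a shift shared by all genes cannot be seen. The deposited signals of the gene probe sets were not on exactly the same distribution, as their medians below show.

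Of 23188 gene probe sets, 15049 had 1 gene symbol, for 15037 genes, and none had several. Differences are the log2 of the deposited intensity in the ligated pool minus that in the sham pool, with no further scaling. The median signal over gene probe sets was 110.4 in the ligated pool and 106.4 in the sham pool. The number of arrays limits the precision. Antigenomic probe sets named GC08 to GC18 had signals up to 35.7 in the ligated pool and 44.2 in the sham pool, and the other 12 had 109 or more on both. Genes were not matched to them by base composition, so a gene within background is not shown to be absent. Where 1 signal of a gene was within background, the fold is a bound against the brightest antigenomic probe set of that array.

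The members and lists were chosen with earlier results of these data known. All members are named. From each pathway list the text names up to 2 genes in each direction, those furthest past 2-fold above background, or the furthest in a direction where none passed, and for each cell type list the largest difference and the brightest gene. Other genes were chosen after their values were seen. Alternatives were judged against the SD of the log2 differences of 12 housekeeping genes below the ceiling of the signal (0.26), used in place of a spread between replicates. The computation was run on a simulated pair of arrays with known folds, which checks the code and says nothing about the precision of these unreplicated arrays. The closing section gives the alternatives tried. The tools were Python 3.11.15 with pandas 2.3.3, numpy 2.4.6, matplotlib 3.10.9 and statsmodels 0.14.6.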

Additional observations from a re-analysis of the deposited data

How the results depend on the processing

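No paired analysis was possible because each group has 1 array. With 64 added and under the scalings, the members above background were above 0, from 0.66 to 0.89 for Epas1, 0.41 to 0.59 for Adm, 0.13 to 0.33 for Vhl, 0.13 to 0.32 for Bnip3, and 0.04 to 0.27 for Hif1a on the log2 scale. Hif3a, within background, turned to -0.09 with each array centred on its own median signal over the 12 housekeeping genes. This median lay between Psmb2 and Vcp in the ligated pool but between Psmb2 and Rplp0 in the sham pool. Its shift thus compared different genes, while the median of the housekeeping differences was 0.04. The same centring gave the lowest value of each range above. The use of the mean of the housekeeping genes for the main such centring, with their median signal beside it, and the raising of dim signals to the brightest antigenomic probe set were chosen after seeing the data. The centring on the median housekeeping signal moved the median of all genes to -0.24, and the median of the members to 0.13. With 64 added to each signal, Egln3 became 0.45, Ankrd37 0.10 and Car9 -0.18. The count of members over 2.0-fold higher, 1 without scaling, was 0 with each array centred on its median or on the housekeeping genes (either way), with 64 added, with genes within background or under the median signal left out, and with dim signals raised, and 1 with quantile normalization or lowess. At 1.5-fold it was 3, against 12.4% of named genes, and 1 member was lower, against 10.8%. Raising dim signals gave no difference for the 4 members within background, an outcome fixed by the step, which gives both of their signals the same value. The count of 0 with dim genes left out or raised was fixed too, since Egln3, the only member past 2-fold, is such a gene. Raising dim signals also gave a median of 0.00 for the mitochondrial targets. By the mean in place of the median, collagen and matrix processing genes had 0.32 and adrenomedullin receptor genes 0.75. Each measured member has 1 probe set, so taking the brightest probe set could not change its value.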

Other observations

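HIF targets of collagen and matrix processing were mixed. Of 6 measured, 1 passed 2-fold upward and none downward, against 4.04% and 2.97% of all named genes, with a median of -0.07 and a mean of 0.32. Loxl2, a lysyl oxidase that cross-links collagen, had 1353 in the ligated pool and 288 in the sham pool (4.70-fold higher), while P4ha2, a collagen prolyl hydroxylase, differed by -0.34 on the log2 scale.

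Among 16 other measured HIF targets, 12 were above 0 and 4 below, against 48.7% of all named genes above 0, with a median of 0.26. Of the 16, 1 passed 2-fold upward and none downward, against 4.04% and 2.97% of all named genes. Within background on both arrays were 3 of the 16, Kdm4b, Stc2 and Car12. Igfbp3, a binding protein of insulin-like growth factors, had 2384 in the ligated pool and 772 in the sham pool (3.09-fold higher). Vldlr, a lipoprotein receptor, had 1880 in the ligated pool and 3718 in the sham pool (-0.98 on the log2 scale). Kdm3a, a histone demethylase often used as a HIF readout, had 796 on each array.

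The 8 neuron markers had a median of 0.00. Their largest difference was that of Gad1 (-0.75, within background on both arrays), and Snap25, the brightest, differed by 0.00. Of these 8, 3 were within background on both arrays. The other 5 had a median of 0.20, with 4 above 0 and 1 below, and the largest difference among them was 0.59 for Map2. The summed signal of the 8 neuron markers was 4376 in the ligated pool and 4164 in the sham pool. Of 4 measured erythroid markers, 2 were above 0 and 2 below. The 2 above 0, Alas2 and Slc4a1, were within background on both arrays. The 2 above background, Hba-a1 and Hbb, were lower in the ligated pool, by -0.62 and -0.49 on the log2 scale. Hba-a1, an α-globin gene, had 176391 in the ligated pool and 270577 in the sham pool. The summed signal of these erythroid markers was 188611 in the ligated pool and 287737 in the sham pool.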
